A study of Mus musculus with 12 samples.

Results

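The genes described here are those of the lysosomal proteases (cathepsins), the lysosome-associated membrane proteins (Lamp genes) and the vacuolar proton pump (V-ATPase) with its accessory proteins. They were taken by symbol from the deposited table: Cts followed by a single letter, Lamp followed by a digit, and symbols that start with Atp6v or Atp6ap. This rule found 41 of the 17576 genes in the table: 13 cathepsins, 3 Lamp genes, 9 Atp6v0 and 14 Atp6v1 genes, and 2 accessory proteins. Total RNA was sequenced from C18-4 cells, an established line derived from mouse spermatogonia, whose strain the labels give as IRC mouse. The 12 libraries fell into 4 groups of 3, all of cells transfected with virus. The group 8276OV received virus for overexpression of the long noncoding RNA lncRNA8276, and the group 8276KD virus for its inhibition. The groups 5NC and 3NC are control groups whose names the labels do not spell out. The design text lists 5NC beside overexpression and 3NC beside knockdown, and they were used as controls in that way. All groups share a single cell line, so nothing here compares lines or animals. The labels give no time after transfection and name no separate cultures within a group, so the spread behind each p-value is that of these libraries and may be technical. The level of lncRNA8276 was not analysed here.

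Lysosomes break down proteins, lipids and sugars that reach them by endocytosis and autophagy. Their cathepsins work best at low pH, and the heavily glycosylated Lamp proteins line the inside of the membrane that holds them in. The acid is supplied by the V-ATPase, in which the cytosolic V1 sector hydrolyses ATP and turns a rotor in the membrane-bound V0 sector, which carries protons into the lumen. V1 and V0 can come apart and join again, which switches the pump on and off, and several subunits exist as isoforms that are made in different tissues. In the testis, lysosomal proteases also serve in tissue remodelling, and cathepsin L is best known there as a product of Sertoli cells.

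Values were read as FPKM, fragments scaled by transcript length and library total, so levels can be compared between genes. Of the 41 genes, 27 reached 1 FPKM in 3 libraries or more and were tested: 6 cathepsins, 2 Lamp genes, 8 V0 genes, 9 V1 genes and both accessory proteins. The other 14 never exceeded 0.6 FPKM. Among the cathepsins these were Ctss, the cathepsin of antigen-presenting cells, with at most 0.08, Ctsc, which activates serine proteases of leukocytes, with at most 0.01, Ctsh with at most 0.08, and the osteoclast protease Ctsk with at most 0.23. Ctsw, known from cytotoxic lymphocytes, reached 0.37, Ctsf 0.6 and Ctsq, a cathepsin of the rodent placenta, 0.06. Lamp3, known from maturing dendritic cells, reached 0.04. Of the pump genes, the osteoclast isoform Atp6v0d2 reached 0.02, the renal isoform Atp6v1b1 0.11, Atp6v1c2 0.38 and the testis isoform Atp6v1e2 0.14. The renal isoform Atp6v1g3 was listed at 0 in all 12 libraries. Atp6v1fnb reached 0.13. It was caught by its symbol, which names it as a neighbour of Atp6v1f, and it is not known as a subunit. At the depth implied by the lowest values a single fragment would be worth about 0.06 for Ctss, but 0.025 for Ctsc and 0.032 for Atp6v0d2, which is more than their highest values, so that depth is a rough estimate.

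The labelled cell type was set against its markers. Of 16 spermatogonial and germ cell markers in the table, 4 reached a value of 1 in any library (Id4, Etv5, Uchl1 and Itga6), and the highest values were 0.17 for Gfra1, 0.01 for Ret, 0.04 for Zbtb16, 0.03 for Ddx4 and 0.05 for Dazl. Of 8 macrophage markers, only Cd14 reached 1 (at most 1.26). The summed macrophage markers lay between 0.69 and 1.78 in every group, with Ptprc at most at 0.03 and Csf1r at most at 0.11. Of 7 Sertoli cell markers, 3 reached 1, Wt1 the highest with 49.0 to 62.8, while Sox9 and Amh stayed at or below 0.02 and 0.14. In bulk RNA, fewer cells of a type and less RNA per cell cannot be told apart.

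Depth implied by the lowest values ranged from 11000000 to 12900000 fragments per library, with 10929 to 11165 genes at 1 FPKM or more. Between libraries, log2(FPKM + 1) correlated with Pearson's r of 0.993 to 0.998 within groups and 0.951 to 0.988 between groups. Libraries differed in how their values moved with the GC content of the transcript. The slope of the deviation from each gene's mean, per 10 points of GC content, was 0.103 to 0.151 in 3NC and 0.148 to 0.198 in 5NC. In 8276OV it was -0.462 to -0.237. In 8276KD it was -0.0402 and -0.00192 in replicates 1 and 3 and 0.184 in replicate 2. Fold changes below are therefore given as deposited and, where it matters, after removal of the GC trend from each library.

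Most cathepsin transcript came from 4 genes, Ctsl, Ctsb, Ctsz and Ctsd. Ctsl, which encodes the cysteine endopeptidase cathepsin L (gene 13039, chr13:64361890-64370772), had FPKM values of 378, 358 and 358 in the 3NC libraries, 693, 661 and 661 in the 5NC libraries, 443, 433 and 441 in the 8276KD libraries, and 799, 791 and 803 in the 8276OV libraries. The 4 groups did not overlap: 3NC lay lowest, then 8276KD, 5NC and 8276OV. Ctsb, the gene of cathepsin B, which cuts both inside proteins and from their ends (gene 13030, chr14:63122462-63145923), had FPKM values of 228, 219 and 225 in the 3NC libraries, 211, 218 and 216 in the 5NC libraries, 185, 182 and 179.5 in the 8276KD libraries, and 201, 208 and 199.9 in the 8276OV libraries. All 8276KD libraries lay below all others.

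Ctsz encodes a carboxypeptidase of the same papain-like family (gene 64138, chr2:174427494-174439039) and had FPKM values of 189, 181 and 187 in the 3NC libraries, 219, 214 and 214 in the 5NC libraries, 174, 204 and 181 in the 8276KD libraries, and 125, 152 and 135 in the 8276OV libraries. Its 8276OV libraries were the lowest of the 12, and 3NC and 8276KD overlapped. Ctsd, the gene of the aspartic protease cathepsin D (gene 13033, chr7:142375910-142387827), had FPKM values of 147, 148 and 144 in the 3NC libraries, 176, 179 and 177 in the 5NC libraries, 135, 141 and 135 in the 8276KD libraries, and 109, 124 and 123 in the 8276OV libraries. The 5NC libraries were the highest and the 8276OV libraries the lowest. Ctsa, whose product is a serine carboxypeptidase that also shields β-galactosidase and neuraminidase (gene 19025, chr2:164832872-164841032), had FPKM values of 29.1, 28.6 and 31.1 in the 3NC libraries, 41.7, 42.5 and 44.96 in the 5NC libraries, 25.8, 26.6 and 25.4 in the 8276KD libraries, and 26.4, 31.7 and 28.2 in the 8276OV libraries, and only 5NC stood apart, above the rest. Ctso, another cysteine cathepsin, was low throughout, at 3.85 to 6.44 FPKM. By mean over the 12 libraries the order was Ctsl (568), Ctsb (206), Ctsz (181), Ctsd (145), Ctsa (31.9) and Ctso (5.14). Ctsb and Ctsz were the only neighbours in this order that changed places, with Ctsb the higher in 9 of 12 libraries.

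Lamp1 and Lamp2 encode the most abundant proteins of the lysosomal membrane, and LAMP2 in a splice form of its own serves as the receptor of chaperone-mediated autophagy. Lamp1 (gene 16783, chr8:13159161-13175338) had FPKM values of 204, 199 and 204 in the 3NC libraries, 405, 411 and 409 in the 5NC libraries, 261, 256 and 259 in the 8276KD libraries, and 348, 360.5 and 365 in the 8276OV libraries. Its groups did not overlap, with 3NC lowest, 8276KD next, then 8276OV and 5NC. Lamp2 (gene 16784, chrX:38399647-38456460) had FPKM values of 101, 94.8 and 95.5 in the 3NC libraries, 114, 123 and 114 in the 5NC libraries, 98.0, 84.3 and 95.4 in the 8276KD libraries, and 160.1, 140.3 and 147 in the 8276OV libraries. Here 8276OV was highest, 5NC next, and 3NC and 8276KD overlapped. Lamp1 was above Lamp2 in all 12 libraries.

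**Figure D1:**
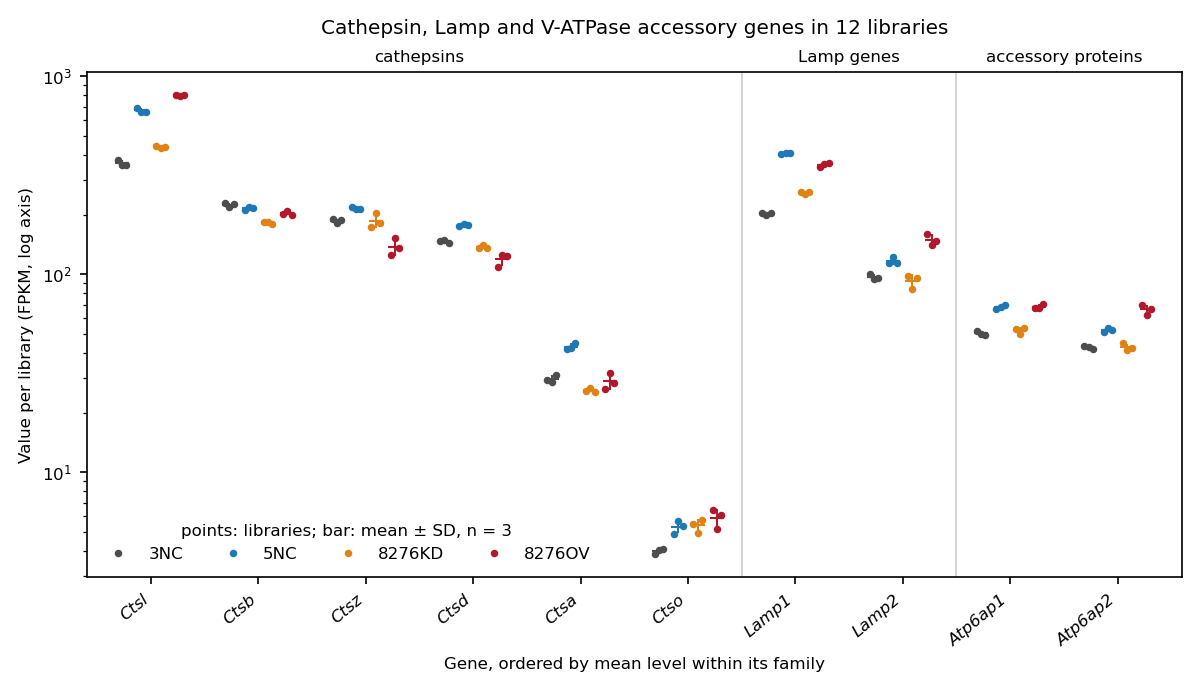
Values of the tested cathepsin, Lamp and accessory genes in FPKM on a log axis, with a point for each library, coloured by group, and a bar for the mean ± SD of 3 libraries. Ctsl and Lamp1 separate all 4 groups, with Ctsl means of 365 in 3NC and 798 in 8276OV.

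In the V0 sector, the proton-binding ring is built mainly from the product of Atp6v0c (gene 11984, chr17:24163865-24169678), which had FPKM values of 389, 373 and 378 in the 3NC libraries, 539, 548 and 541 in the 5NC libraries, 414, 459 and 389 in the 8276KD libraries, and 314, 397 and 367 in the 8276OV libraries. All 5NC libraries lay above all others. Processed pseudogenes of Atp6v0c are annotated, so its reads may be shared with them. Atp6v0b, which encodes another proteolipid of the ring (gene 114143, chr4:117884330-117887333), had FPKM values of 81.6, 69.7 and 78.03 in the 3NC libraries, 142, 121 and 124 in the 5NC libraries, 72.4, 87.0 and 72.0 in the 8276KD libraries, and 71.7, 90.8 and 78.04 in the 8276OV libraries. It too was highest in 5NC, while the other 3 groups overlapped.

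Atp6v0e encodes a small membrane subunit (gene 11974, chr17:26676396-26699647) and had FPKM values of 202, 205 and 207 in the 3NC libraries, 204, 201 and 207 in the 5NC libraries, 302, 296 and 286 in the 8276KD libraries, and 321, 334 and 311 in the 8276OV libraries. Both manipulated groups lay above both control groups, which overlapped. Its isoform Atp6v0e2 (gene 76252, chr6:48537569-48541801) had FPKM values of 12.8, 13.1 and 11.6 in the 3NC libraries, 20.2, 20.3 and 20.6 in the 5NC libraries, 12.9, 13.2 and 12.1 in the 8276KD libraries, and 12.7, 14.1 and 16.0 in the 8276OV libraries, highest in 5NC. Atp6v0d1, which links the rotor's stalk to the ring (gene 11972, chr8:105524461-105566064), had FPKM values of 59.6, 57.9 and 65.2 in the 3NC libraries, 91.0, 86.3 and 84.8 in the 5NC libraries, 55.7, 70.5 and 66.5 in the 8276KD libraries, and 70.0, 77.5 and 74.3 in the 8276OV libraries. The 5NC libraries were again on top, and 3NC and 8276KD overlapped.

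Subunit a, the stator arm that holds the proton channel, is encoded by 4 genes, of which the rule's symbols cover 3. Atp6v0a1 ranged from 14.1 to 19.9 FPKM and Atp6v0a2 from 9.69 to 13.8. Atp6v0a4, known from acid-secreting cells of the kidney (gene 140494, chr6:38048483-38124586), had FPKM values of 4.11, 4.14 and 3.85 in the 3NC libraries, 3.32, 3.33 and 3.55 in the 5NC libraries, 5.70, 6.0 and 6.82 in the 8276KD libraries, and 4.66, 4.76 and 3.95 in the 8276OV libraries. The 8276KD libraries were the highest and the 5NC libraries the lowest. The order of the V0 genes by mean was Atp6v0c (426), Atp6v0e (256), Atp6v0b (90.7), Atp6v0d1 (71.6), Atp6v0a1 (17.1), Atp6v0e2 (15), Atp6v0a2 (11.0) and Atp6v0a4 (4.52). The pair least clearly ordered was Atp6v0a1 above Atp6v0e2, in 8 of 12 libraries.

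In the V1 sector, the highest genes were those of small stalk subunits. Atp6v1f (gene 66144, chr6:29467783-29470509) had FPKM values of 210.3, 208 and 224 in the 3NC libraries, 255, 253 and 253 in the 5NC libraries, 185, 216 and 173 in the 8276KD libraries, and 225, 266 and 222 in the 8276OV libraries. The 5NC libraries lay close together, the other groups spread more widely, and 8276OV overlapped both controls. Atp6v1g1, a subunit of the peripheral stalks (gene 66290, chr4:63544765-63550701), had FPKM values of 153, 156 and 163 in the 3NC libraries, 184, 184 and 185 in the 5NC libraries, 139.8, 143 and 137 in the 8276KD libraries, and 193, 189.9 and 193 in the 8276OV libraries. The 4 groups did not overlap, from 8276KD, the lowest, through 3NC and 5NC to 8276OV.

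Atp6v1c1 encodes the subunit that is released when V1 comes off V0 (gene 66335, chr15:38661904-38692444) and had FPKM values of 77.9, 75.6 and 70.8 in the 3NC libraries, 77.6, 83.8 and 82.5 in the 5NC libraries, 81.7, 74.1 and 81.5 in the 8276KD libraries, and 121, 119 and 123 in the 8276OV libraries. All 8276OV libraries lay above all others, which overlapped. Atp6v1d, the gene of the central rotor shaft (gene 73834, chr12:78842982-78862008), had FPKM values of 32.6, 33.0 and 35.8 in the 3NC libraries, 43.3, 37.0 and 34.3 in the 5NC libraries, 37.1, 43.5 and 43.6 in the 8276KD libraries, and 57.6, 57.8 and 60.1 in the 8276OV libraries, with 8276OV again above all others. The catalytic subunit Atp6v1a ranged from 38.0 to 55.8 FPKM, its partner in the ATPase ring Atp6v1b2 from 52.8 to 76.7, the stalk subunit Atp6v1e1 from 80.2 to 113, and the regulatory subunit Atp6v1h from 37.4 to 60.0. Atp6v1g2, an isoform known from brain, lay at 0.83 to 1.97, just around the limit for testing. Neighbours in the order by mean were hard to tell apart for Atp6v1e1 above Atp6v1c1 (8 of 12 libraries), Atp6v1h above Atp6v1a (7 of 12) and Atp6v1a above Atp6v1d (6 of 12).

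Among the accessory proteins, Atp6ap1, an assembly factor and part of the pump (gene 54411, chrX:74297097-74304721), had FPKM values of 51.8, 50.1 and 49.5 in the 3NC libraries, 66.8, 68.5 and 69.9 in the 5NC libraries, 52.8, 50.1 and 53.8 in the 8276KD libraries, and 67.6, 67.5 and 70.9 in the 8276OV libraries. It fell into a lower pair of groups, 3NC and 8276KD, and a higher pair, 5NC and 8276OV, with overlap inside each pair. Atp6ap2, also called the prorenin receptor (gene 70495, chrX:12587759-12617051), had FPKM values of 43.3, 42.7 and 41.7 in the 3NC libraries, 50.9, 53.3 and 52.2 in the 5NC libraries, 44.8, 41.3 and 42.2 in the 8276KD libraries, and 69.8, 62.5 and 66.8 in the 8276OV libraries. It showed the same lower pair, and 8276OV lay above 5NC.

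**Figure D2:**
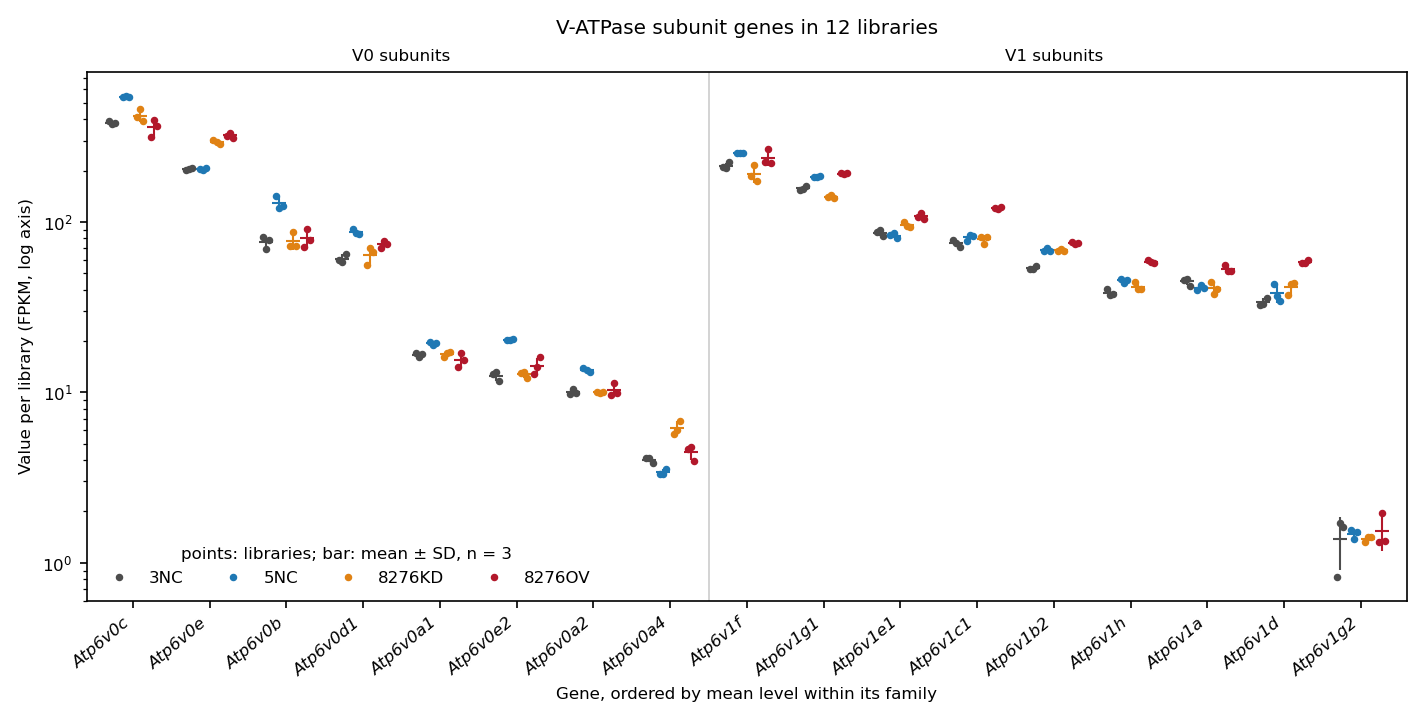
Values of the tested V0 and V1 genes in FPKM on a log axis, with a point for each library, coloured by group, and a bar for the mean ± SD of 3 libraries. Most V0 genes peak in 5NC, while the V1 genes other than Atp6v1f peak in 8276OV (values as deposited, without GC correction).

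By group means, 6 of 8 V0 genes were highest in 5NC and 8 of 9 V1 genes were highest in 8276OV. The exceptions were Atp6v0e (8276OV), Atp6v0a4 (8276KD) and Atp6v1f (5NC). For Atp6v1g2, 1 of the 8, the groups overlapped. These counts rest on values as deposited, and the same count was not made over all tested genes. After GC correction 8276OV no longer lay above 5NC at Atp6v1h (log2 change -0.033, limma adjusted p = 0.625). It no longer lay below 5NC at Atp6v0d1 (0.081, adjusted p = 0.23), and it lay above 5NC at Atp6v1f (0.22, adjusted p = 0.00452). In 12 of the 27 genes an exon overlaps an exon of another annotated gene, and strand was not known for the counting. Among the genes described most closely these are Ctsl (with an antisense gene and a pseudogene), Ctsb (Fdft1), Ctsz (Nelfcd), Ctsd (Gm49369), Ctsa (Neurl2 and Pltp), Lamp1 (Grtp1), Atp6v0b (Gm12841) and Atp6v0a4 (Tmem213 and D630045J12Rik), and some of their reads could belong to the partner.

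The 2 control groups differed from each other at most of these genes, nearly always with 5NC the higher. Lamp1 rose from 203 ± 3.12 FPKM in 3NC to 408 ± 3.19 in 5NC (mean ± SD of 3 libraries; log2 change 1.01, SE 0.0335, adjusted p = 3.93e-11). Ctsl rose from 365 ± 11.6 to 672 ± 18.5 (0.88, SE 0.0356, adjusted p = 2.67e-10). Of the 27 genes, 19 were higher in 5NC and 1 was lower at an adjusted p below 0.05. Over all 11360 tested genes 56.5% were called, 30.6% higher and 25.9% lower. The median fold change was 0.27 on the log2 scale over the 27 genes, against 0.022 over all genes.

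By role, 5 of 6 cathepsins were higher in 5NC, all but Ctsb (-0.058, adjusted p = 0.174). Ctsa was higher by 0.53, Ctso by 0.33, Ctsd by 0.27 and Ctsz by 0.21, the last not called without 3NC replicate 2 (0.19, adjusted p = 0.0573). Lamp2 was higher by 0.27. In the V0 sector 6 of 8 genes were higher: Atp6v0b (0.74, SE 0.0952, adjusted p = 1.81e-05), Atp6v0e2 (0.67), Atp6v0d1 (0.52), Atp6v0c (0.51), Atp6v0a2 (0.39) and Atp6v0a1 (0.21). Atp6v0a4 was lower (-0.19, adjusted p = 0.0425), a call lost without any single one of the 6 libraries (-0.22 to -0.18, adjusted p 0.0517 to 0.113). Atp6v0e differed by -0.0063 (adjusted p = 0.897).

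Of the V1 genes, 4 of 9 were higher, with a median of 0.17, against 0.45 for V0. These were Atp6v1b2 (0.34, SE 0.039, adjusted p = 5.83e-06), Atp6v1f (0.24, not called without 3NC replicate 2, 0.22 with adjusted p = 0.056), Atp6v1h (0.23) and Atp6v1g1 (0.23). Atp6v1c1 (0.12 with all libraries) was called without 3NC replicate 1 or 5NC replicate 1 (0.15 each, adjusted p = 0.0452 and 0.037), and Atp6v1d (0.17) without 5NC replicate 3 (0.24, adjusted p = 0.0283). Both accessory genes were higher, Atp6ap1 by 0.43 and Atp6ap2 by 0.29. After GC correction 20 genes were higher and 3 lower, where 64.5% of all genes were called (31.2% higher, 33.3% lower), and the median was 0.26. The calls added were Atp6v1c1 (0.11), Ctsb (-0.09) and Atp6v1a (-0.12). Lamp1 stood at 0.96 and Ctsl at 0.87. Across the 17 V0 and V1 genes, which are not independent, Spearman's rho between fold change and GC content was 0.642, and 0.559 after correction. Over all genes with a known GC content it was 0.109 and 0.0143. The part of GC content in the difference between V0 and V1 was not tested. Markers of peritubular myoid cells and fibroblasts were also higher in sum: 6 of 8 reached 1, and Myh11 and Col1a2 stayed at or below 0.08 and 0.58. The markers of this list summed to 298 to 308 FPKM in 3NC, 521 to 528 in 5NC, 354 to 423 in 8276KD and 404 to 465 in 8276OV. Col1a1 was the largest part, at 237 to 383 FPKM over all libraries. The summed germ cell markers were 87.6 to 96.8 in 3NC, 98.2 to 101.9 in 5NC, 127.9 to 148.8 in 8276KD and 80.8 to 91.8 in 8276OV, and those of Sertoli cells 57.4 to 59.9, 59.0 to 60.6, 63.8 to 68.7 and 53.7 to 56.0. Their part in the lysosomal differences, here and in the comparisons below, was not tested.

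Many lysosomal genes carry the E-box CACGTG, the core of the site bound by TFEB and its relatives, near their start. The windows of 250 bases before to 50 after each annotated start (RefSeq, GRCm38.p6) were searched for it. It reads the same on both strands. An entry was found for 21 of the 27 tested genes, and 8 of these (38.1%) held CACGTG in a window, against 12.1% of 9139 tested genes with an entry and 8.09% of all 27025 genes in the promoter table. The longer TCACGTGA, which contains it, was found in 5 of the 21 (23.8%), against 2.32% of tested genes. Lamp1 had 4 matches, Ctsa, Ctsd and Atp6v0b had 2 each, and Ctsl, Atp6v0e, Atp6v0d1 and Atp6v1a had 1 each. The 150 bases that end at the base before the annotated start are shown for 5 of these genes, chosen because a match lies in that stretch, with CACGTG in capitals and the rest in lower case, 5′ to 3′ along the gene. The start is RefSeq's and can lie inside the gene's outer bounds given above:
Lamp1, chr8:13159011-13159160, plus strand: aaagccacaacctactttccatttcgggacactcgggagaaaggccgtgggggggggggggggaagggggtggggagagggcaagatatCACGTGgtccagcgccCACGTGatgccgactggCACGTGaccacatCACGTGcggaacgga
Ctsd, chr7:142387828-142387977, minus strand: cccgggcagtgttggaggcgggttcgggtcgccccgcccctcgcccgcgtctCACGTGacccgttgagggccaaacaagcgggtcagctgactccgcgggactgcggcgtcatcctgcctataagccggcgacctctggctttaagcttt
Ctsa, chr2:164833623-164833772, plus strand: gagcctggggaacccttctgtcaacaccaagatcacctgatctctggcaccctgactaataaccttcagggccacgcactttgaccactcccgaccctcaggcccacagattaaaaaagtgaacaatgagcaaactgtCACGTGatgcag
Atp6v0b, chr4:117887330-117887479, minus strand: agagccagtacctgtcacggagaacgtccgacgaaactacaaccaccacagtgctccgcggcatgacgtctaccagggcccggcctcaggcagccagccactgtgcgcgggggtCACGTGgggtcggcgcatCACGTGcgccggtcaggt
Atp6v1a, chr16:44139260-44139409, minus strand: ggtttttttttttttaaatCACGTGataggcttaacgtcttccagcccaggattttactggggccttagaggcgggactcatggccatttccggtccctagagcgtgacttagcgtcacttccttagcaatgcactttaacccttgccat
Of the 8 genes with a match, 6 were higher in 5NC than in 3NC, and Atp6v0e and Atp6v1a (-0.12, adjusted p = 0.116) were not called. Of the other 19 tested genes, which include those without an entry, 13 were higher and 1 was lower. Over all tested genes 30.6% were higher and 25.9% lower. In 8276OV against 5NC, 3 of the 8 were higher and 5 lower. Of the 19, 8 were higher and 6 lower, and of all genes 30.3% and 44.1%. In 8276KD against 3NC, 3 of the 8 were higher and 1 lower. Of the 19, 5 were higher and 2 lower, and of all genes 20.0% and 19.5%. These differences in counts were not tested. A match is a run of letters and says nothing of whether a factor was bound in these cells.

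Overexpression against 5NC moved the members in both directions, with most V1 genes higher and most V0 genes lower. Of the 27 genes, 11 were higher and 11 lower in 8276OV, where 74.4% of all tested genes were called, 30.3% higher and 44.1% lower. The medians were 0.029 on the log2 scale for the members and -0.088 for all genes. Over all genes 3447 were higher and 5005 lower, a split that depended on the scaling: it was 4168 and 4284 with median-of-ratios factors and 4428 and 3997 with quantile normalization, with the median of all genes at -0.0086 and 0.029. The members then numbered 13 higher and 9 lower, and 12 and 12. V1 genes were higher in 6 of 9 cases, with the other 3 not called (median 0.36). V0 genes were lower in 6 of 8 cases and higher in 2 (median -0.33). With median-of-ratios factors the counts were 7 higher for V1 and 5 lower and 2 higher for V0, and with quantile normalization 6 higher and 1 lower for V1, with Atp6v1f the lower, and 6 lower and 2 higher for V0. The summed germ cell, Sertoli cell and myoid or fibroblast markers were all lower in every 8276OV library than in any 5NC library. Most of each sum came from a single gene (Uchl1, Wt1 and Col1a1).

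The largest rises in V1 were those of Atp6v1d, from 38.2 ± 4.62 to 58.5 ± 1.44 FPKM (mean ± SD of 3 libraries; log2 change 0.61, SE 0.0797, adjusted p = 1.38e-05), and Atp6v1c1, from 81.3 ± 3.27 to 121 ± 2.14 (0.57, SE 0.0509, adjusted p = 7.06e-07). Atp6v1e1 rose by 0.38, Atp6v1h by 0.36, Atp6v1a by 0.35 and Atp6v1b2 by 0.14. Atp6v1g1 (0.055, adjusted p = 0.176), Atp6v1g2 (0.029, adjusted p = 0.851) and Atp6v1f (-0.098, adjusted p = 0.265) were not called. Without 8276OV replicate 2, Atp6v1f was called lower (-0.18, adjusted p = 0.0338). In V0, Atp6v0b fell from 129 ± 11.1 to 80.2 ± 9.72 (-0.68, SE 0.0952, adjusted p = 2.38e-05) and Atp6v0c from 543 ± 4.54 to 359 ± 42.1 (-0.60, SE 0.0733, adjusted p = 7.74e-06). Atp6v0e2, Atp6v0a2, Atp6v0a1 and Atp6v0d1 had log2 fold changes of -0.49, -0.36, -0.31 and -0.24. The V0 genes that rose were Atp6v0e, from 204 ± 3.08 to 322 ± 11.6 (0.66, SE 0.0376, adjusted p = 4.46e-08), and Atp6v0a4 (0.31).

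Of the cathepsins, Ctsl rose by 0.25 (SE 0.0356) and 4 fell. Ctsz went from 216 ± 2.89 to 137 ± 13.9 FPKM (-0.65, SE 0.0678, adjusted p = 2.12e-06), Ctsd from 177 ± 1.74 to 119 ± 8.73 (-0.57, SE 0.0481, adjusted p = 4.44e-07) and Ctsa from 43.1 ± 1.69 to 28.8 ± 2.69 (-0.57, SE 0.0618, adjusted p = 3.15e-06). Ctsb was lower by a small margin (-0.085, adjusted p = 0.0402), a call lost without 5NC replicate 2 or 3 or 8276OV replicate 1 or 3 (-0.082 to -0.074, adjusted p 0.0891 to 0.121). It stood at 0.0069 when the libraries were scaled by median-of-ratios factors. Ctso was at 0.13, adjusted p = 0.161, and was called higher without 8276OV replicate 2 (0.20, adjusted p = 0.027). Lamp1 fell (-0.19, SE 0.0335, adjusted p = 1.77e-04) and Lamp2 rose (0.35, SE 0.0618, adjusted p = 1.72e-04). Atp6ap2 rose by 0.34, and Atp6ap1 was at 0.0045, adjusted p = 0.929.

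**Figure D3:**
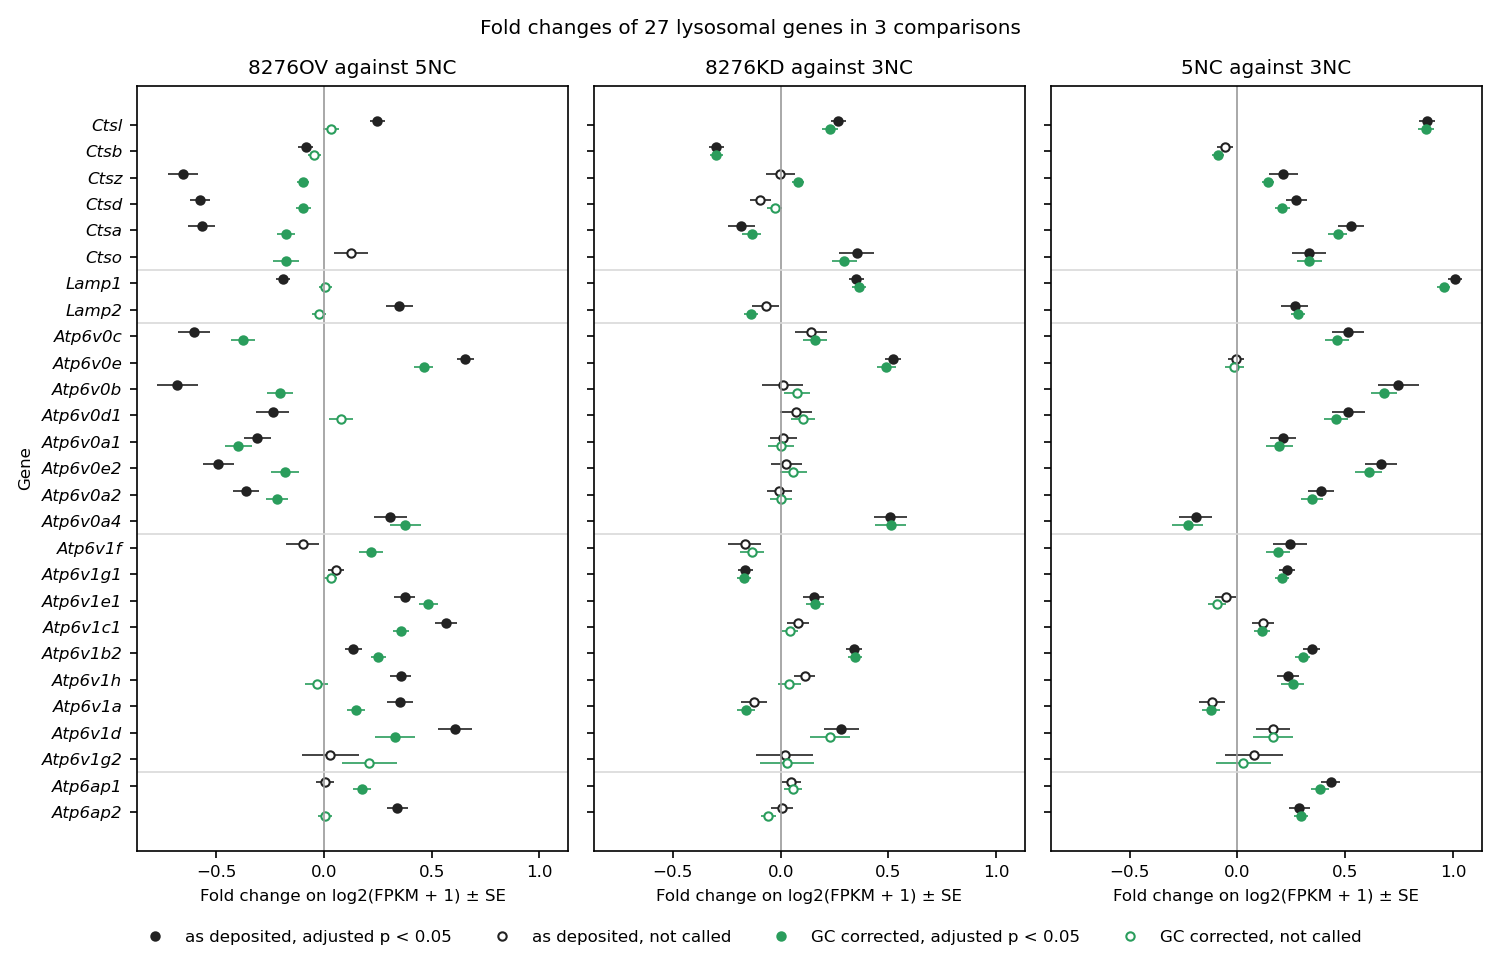
Fold changes on the log2(FPKM + 1) scale with limma standard errors for the 27 tested genes in 3 comparisons, as deposited (black) and after GC correction (green). Filled points have an adjusted p below 0.05. The 5NC against 3NC panel lies mostly to the right of 0, and the 8276OV against 5NC panel is the one in which GC correction shifts the points most.

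These changes ran along the GC content of the transcripts. Across genes, which are not independent replicates, Spearman's rho between fold change and GC content was -0.813 over the 27 members and -0.789 over 11197 tested genes. The median GC content was 48.2% for V1, 51.4% for V0 and 51.9% for the cathepsins, against 49.7% for all tested genes. After GC correction rho was -0.254 over the members, -0.316 over the 17 V0 and V1 genes and -0.0224 over all genes. With this correction 9 members were higher and 9 lower, where 54.8% of all genes were called, 27.8% higher and 27.0% lower. V1 genes were then higher in 6 of 9 cases, with the other 3 not called (median 0.22), and V0 genes lower in 5 and higher in 2 of 8 (median -0.19). These were not the same 6 V1 genes as before the correction. Atp6v1f turned from -0.098, not called, to a call, while Atp6v1h lost its own. The calls were those of Atp6v1e1 (0.48, SE 0.0422, adjusted p = 3.09e-07), Atp6v1c1 (0.36), Atp6v1d (0.33), Atp6v1b2 (0.25), Atp6v1f (0.22) and Atp6v1a (0.15) in V1. In V0 they were Atp6v0a1 (-0.40, SE 0.0609, adjusted p = 6.78e-05), Atp6v0c (-0.37), Atp6v0a2 (-0.22), Atp6v0b (-0.20) and Atp6v0e2 (-0.18), with Atp6v0e (0.46) and Atp6v0a4 (0.38) higher. Atp6v1h (-0.033, adjusted p = 0.625) and Atp6v0d1 (0.081, adjusted p = 0.23) lost their calls.

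The cathepsin changes also shrank under this correction. Ctsz stood at -0.097, adjusted p = 0.01, Ctsd at -0.095, adjusted p = 0.0326 and Ctsa at -0.18, adjusted p = 0.0032, all still called lower. Ctso was called lower (-0.17, adjusted p = 0.02). Ctsl (0.033, adjusted p = 0.466), Ctsb (-0.045, adjusted p = 0.214), Lamp1 (0.0073, adjusted p = 0.86), Lamp2 (-0.022, adjusted p = 0.585) and Atp6ap2 (0.0056, adjusted p = 0.904) were no longer called, and Atp6ap1 was called higher (0.17, adjusted p = 0.00259).

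**Figure D4:**
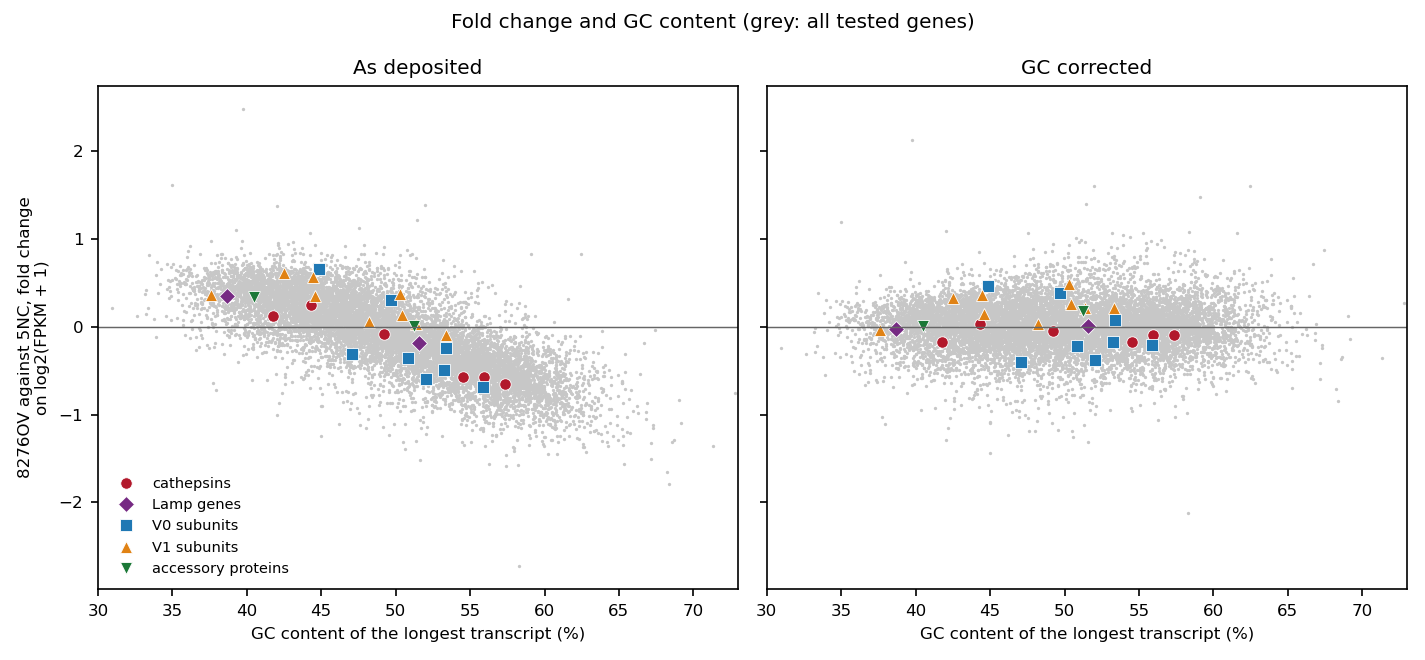
Fold change of 8276OV against 5NC on the log2(FPKM + 1) scale by GC content of the longest annotated transcript, as deposited (left) and GC corrected (right), with all tested genes in grey and the 27 members coloured by family. On the left the members follow the slope of all genes (rho -0.813). On the right rho is -0.254 over the members and -0.0224 over all genes. There V1 genes (triangles) lie mostly above 0 and V0 genes (squares) mostly below.

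Set against 3NC, the same 8276OV libraries gave another picture: 16 members were higher and 3 lower, where 75.2% of all genes were called, 33.5% higher and 41.7% lower. Ctsl was higher by 1.13, Lamp1 by 0.82 and Lamp2 by 0.61. V1 genes were higher in 7 of 9 cases, Atp6v1d by 0.77 and Atp6v1c1 by 0.69. V0 genes were higher in 3 of 8 cases, with the other 5 not called: Atp6v0e (0.65), Atp6v0d1 (0.28) and Atp6v0e2 (0.17). Atp6v0b and Atp6v0c were at 0.064, adjusted p = 0.55 and -0.088, adjusted p = 0.287. Ctsz (-0.44), Ctsd (-0.30) and Ctsb (-0.14) were lower.

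GC correction of this comparison, chosen after the data were seen, left 20 members higher and 2 lower, where 67.3% of all genes were called, 33.4% higher and 33.9% lower. V1 genes were higher in 7 of 9 cases (median 0.39), among them Atp6v1b2 (0.56), Atp6v1d (0.49) and Atp6v1c1 (0.47), while Atp6v1a was not called (0.026, adjusted p = 0.604). V0 genes were higher in 5 of 8 cases (median 0.29), Atp6v0d1 by 0.54 and Atp6v0b by 0.48, and Atp6v0a1 was lower (-0.20, adjusted p = 0.00867). Ctsd was higher (0.11, adjusted p = 0.0106), Ctsz was not called (0.045, adjusted p = 0.173), and Ctsb was lower (-0.14, adjusted p = 9.28e-04). Lamp1 (0.96), Ctsl (0.91) and Ctsa (0.29) were higher. Against both control groups, and with and without GC correction, the members called higher in 8276OV were Atp6v1b2, Atp6v1c1, Atp6v1d, Atp6v1e1 and Atp6v0e.

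Knockdown against 3NC gave fewer calls. Of the 27, 8 were higher and 3 lower in 8276KD, where 39.4% of all tested genes were called, 20.0% higher and 19.5% lower, and the medians were 0.027 for the members and -0.0048 for all genes. Atp6v0e rose from 205 ± 2.52 to 295 ± 7.97 FPKM (mean ± SD of 3 libraries; log2 change 0.52, SE 0.0376, adjusted p = 2.98e-07) and Atp6v0a4 from 4.03 ± 0.160 to 6.17 ± 0.580 (0.51, SE 0.0758, adjusted p = 1.64e-04). The other 6 V0 genes were not called, at -0.0056 to 0.14. In V1, Atp6v1b2 rose (0.34, SE 0.039, adjusted p = 1.95e-05), as did Atp6v1d (0.28) and Atp6v1e1 (0.15), while Atp6v1g1 fell (-0.16, SE 0.0359, adjusted p = 0.00275). The Atp6v1d call was lost without 3NC replicate 1 or 8276KD replicate 3 (0.26 and 0.24, adjusted p = 0.0504 and 0.0575) and after GC correction (0.23, adjusted p = 0.0548). The Atp6v1e1 call was lost without 3NC replicate 3 or 8276KD replicate 1 (0.12 each, adjusted p = 0.0978 and 0.0824). It was also lost with quantile normalization (0.11, adjusted p = 0.0646). Atp6v1f (-0.17) was called lower without 8276KD replicate 2 (-0.26, adjusted p = 0.0073), and Atp6v1a (-0.12) without 8276KD replicate 1 (-0.18, adjusted p = 0.0333).

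Lamp1 rose under knockdown from 203 ± 3.12 to 259 ± 2.87 FPKM (0.35, SE 0.0335, adjusted p = 4.07e-06), and Lamp2 was at -0.069, adjusted p = 0.4. Ctsl rose from 365 ± 11.6 to 439 ± 5.41 (0.27, SE 0.0356, adjusted p = 6.79e-05) and Ctso by 0.35. Ctsb fell from 224 ± 4.82 to 182 ± 2.53 (-0.30, SE 0.0348, adjusted p = 2.30e-05). Ctsa fell by a smaller margin (-0.18, adjusted p = 0.0314), a call lost without 3NC replicate 1 or 3 or 8276KD replicate 1 or 3 (-0.19 to -0.15, adjusted p 0.0594 to 0.126). Ctsd (-0.094, adjusted p = 0.138) and Ctsz (-0.0014, adjusted p = 0.99) were not called. The summed markers of germ cells, Sertoli cells and myoid cells or fibroblasts were higher in every 8276KD library than in any 3NC library. These sums, too, came mostly from a single gene each (Uchl1, Wt1 and Col1a1). Neither accessory gene was called (0.049 and 0.0063). After GC correction 9 members were higher and 5 lower, where 48.4% of all genes were called (25.3% higher, 23.1% lower), with Lamp1 at 0.36, Ctsl at 0.23, Ctsb at -0.30 and Atp6v0e at 0.49. The calls added were Atp6v0c (0.16), Ctsz (0.079), Lamp2 (-0.14) and Atp6v1a (-0.16).

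With 5NC as the control the same 8276KD libraries had 3 members higher and 18 lower, where 55.3% of all genes were called, 24.7% higher and 30.5% lower. Lamp1 and Ctsl, higher than in 3NC, were lower than in 5NC (-0.66 and -0.61). Atp6v0e (0.53), Atp6v0a4 (0.70) and Atp6v1e1 (0.21) were the 3 higher genes. Ctsb (-0.24), Ctsa (-0.71) and Atp6v1g1 (-0.40) were lower against either control. GC correction of this comparison, also chosen after the data were seen, left 3 members higher and 17 lower, where 60.7% of all genes were called, 31.6% higher and 29.2% lower. The 3 higher genes were again Atp6v0a4 (0.74), Atp6v0e (0.51) and Atp6v1e1 (0.25), and Lamp1 (-0.59), Ctsl (-0.64), Ctsa (-0.60), Ctsb (-0.21) and Atp6v1g1 (-0.38) were lower.

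Atp6v0e was called higher in both manipulated groups, and against either control group. So was Atp6v1e1, by 0.38 and 0.32 in 8276OV (against 5NC and 3NC) and by 0.15 and 0.21 in 8276KD (against 3NC and 5NC). The call of Atp6v1e1 in 8276KD against 3NC was lost without some single libraries and with quantile normalization, as given above. An exon of Atp6v1e1 also overlaps an exon of Slc25a18 on the opposite strand, so some of its reads could belong there. The fold change of Atp6v0e was 0.66 under overexpression and 0.52 under knockdown, each against its own control. The difference between these effects was 0.13, SE 0.0531, adjusted p = 0.0424, and after GC correction -0.028, adjusted p = 0.734. The call was lost when any control library, 8276KD replicate 3, or 8276OV replicate 1 or 2 was left out (0.11 to 0.14, adjusted p 0.0537 to 0.0989), with the replicate block (0.13, adjusted p = 0.0591) and with quantile normalization (0.040, adjusted p = 0.561).

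The effects of overexpression and knockdown were also compared gene by gene as the difference between the former and the latter. Each effect was taken against its own control, so the gap between 5NC and 3NC is part of this difference. Of the 27 members, 10 had a higher and 11 a lower effect under overexpression, where 60.6% of all genes were called, 24.5% higher and 36.2% lower. Over all genes 2778 were higher and 4107 lower, against 3485 and 3435 with median-of-ratios factors and 3542 and 3230 with quantile normalization, where the members numbered 10 higher and 9 lower, and 9 and 11. V0 genes were lower in 6 of 8 cases, with Atp6v0c at -0.74, SE 0.104, adjusted p = 6.37e-05 and Atp6v0b at -0.69, SE 0.135, adjusted p = 7.13e-04. V1 genes were higher in 6 of 9 cases, with Atp6v1c1 at 0.49, SE 0.072, adjusted p = 9.56e-05 and Atp6v1a at 0.48, SE 0.0848, adjusted p = 3.62e-04, and Atp6v1b2 was lower (-0.20, adjusted p = 0.00632), a call lost with median-of-ratios factors (-0.12, adjusted p = 0.0879) and GC correction (-0.092, adjusted p = 0.131). Ctsz (-0.65), Ctsd (-0.48), Ctsa (-0.38) and Lamp1 (-0.54) had lower effects under overexpression, and Ctsb (0.21) and Lamp2 (0.42) higher ones. By group means Lamp1 was higher in 8276OV (358 FPKM) than in 8276KD (259), and Atp6v0b was similar (80.2 and 77.1). Atp6v0c was lower in 8276OV (359 and 420.5). All of these were higher in 5NC than in 3NC, so a lower effect need not mean a lower level in 8276OV. Ctsl, which rose in both arms, differed by -0.019, adjusted p = 0.758. After GC correction 7 were higher and 9 lower, where 49.3% of all genes were called (24.9% higher, 24.4% lower). Atp6v0c (-0.53), Lamp1 (-0.36) and Atp6v1c1 (0.31) were still called, Ctsl then differed (-0.20, adjusted p = 0.00601), and Ctsd (-0.069, adjusted p = 0.274) and Ctsa (-0.042, adjusted p = 0.598) did not pass. The smaller difference of Atp6v0d1 (-0.31) lost its call without 3NC replicate 1 or 2, 5NC replicate 1, 8276KD replicate 3 or 8276OV replicate 1 (-0.29 to -0.27, adjusted p 0.0505 to 0.0594). It also lost it with GC correction (-0.023, adjusted p = 0.83) and with median-of-ratios factors (-0.22, adjusted p = 0.0786). That of Atp6v1d (0.33) lost it without 3NC replicate 3, 5NC replicate 2 or 3, 8276KD replicate 1 or 8276OV replicate 3 (0.25 to 0.31, adjusted p 0.05 to 0.0642). With GC correction the difference of Atp6v1d was 0.099, adjusted p = 0.559. That of Ctso (-0.23, not called) was called without 8276KD replicate 2 or 8276OV replicate 1 (-0.28 each, adjusted p = 0.0478 and 0.0452).

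The make-up of the cathepsin transcripts also differed between the groups. The 6 tested cathepsins summed to 955 ± 18.8 FPKM in 3NC, 1328 ± 15.2 in 5NC, 976 ± 13.9 in 8276KD and 1292 ± 23.1 in 8276OV (SD, n = 3). Ctsl made up 38.2% ± 0.531 of this sum in 3NC, 50.6% ± 0.813 in 5NC, 45.0% ± 1.18 in 8276KD and 61.8% ± 1.41 in 8276OV. Its shares in the 4 groups did not overlap. Ctsb made up 23.5% in 3NC, 16.2% in 5NC, 18.7% in 8276KD and 15.7% in 8276OV, and Ctsz 19.5%, 16.2%, 19.1% and 10.6%. From GC-corrected values, a choice made after the data were seen, Ctsl made up 40.4% in 3NC, 53.8% in 5NC, 45.9% in 8276KD and 55.8% in 8276OV, so the groups kept their order but 8276OV lay nearer 5NC (55.2 to 56.2% against 52.7 to 55.1%). Ctsz then made up 17.9 to 18.1%, 14.3 to 14.7%, 18.3 to 18.7% and 13.5 to 13.9%. With 3 libraries a side the smallest p of an exact permutation test is 0.1, so the shares are given without a test.

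Among the genes of subunit a, the isoform Tcirg1, which the symbol rule does not cover and which is best known from osteoclasts, was the most abundant. It had 34.0 ± 1.09 FPKM in 3NC, 29.5 ± 0.68 in 5NC, 26.4 ± 2.75 in 8276KD and 19.4 ± 1.77 in 8276OV. Its share of the 4 genes was 52.5% ± 0.795 in 3NC, 44.8% ± 0.522 in 5NC, 44.4% ± 2.3 in 8276KD and 39.0% ± 1.19 in 8276OV. Atp6v0a4 made up 6.24% in 3NC and 5.17% in 5NC, but 10.4% in 8276KD and 9.0% in 8276OV, with both manipulated groups above both controls in every library. The sum of the 4 genes differed too: 64.7 ± 1.13 FPKM in 3NC, 65.8 ± 1.17 in 5NC, 59.4 ± 3.39 in 8276KD and 49.7 ± 4.14 in 8276OV. In 8276OV the level of Atp6v0a4 was called higher against 5NC (log2 change 0.31) but not against 3NC (0.11, limma adjusted p = 0.186). From GC-corrected values the shares of Tcirg1 were 49.8%, 41.3%, 43.4% and 46.2% in 3NC, 5NC, 8276KD and 8276OV, so that 8276OV was no longer the lowest, and those of Atp6v0a4 were 6.53%, 5.39%, 10.5% and 8.17%. Of the transcripts for subunit e, Atp6v0e2 made up 9.09% ± 0.105 in 5NC against 5.76% ± 0.381 in 3NC, 4.15% ± 0.124 in 8276KD and 4.25% ± 0.571 in 8276OV. GC correction left 5NC the highest (8.16%, against 5.31% in 3NC, 4.0% in 8276KD and 5.37% in 8276OV).

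**Figure D5:**
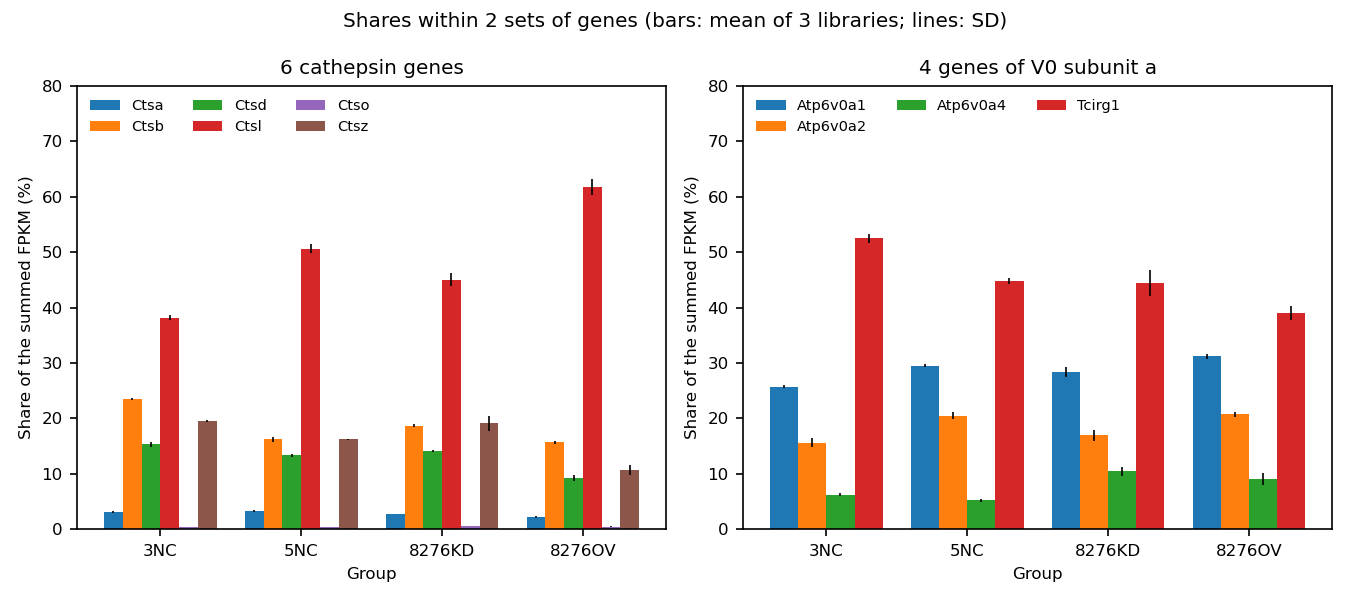
Share of the summed FPKM in percent for the 6 tested cathepsins (left) and the 4 genes of V0 subunit a (right), as means of 3 libraries with SD lines, by group. Ctsl takes the largest share of the cathepsins in each group, up to 61.8% in 8276OV, and the share of Tcirg1 is lowest there at 39.0% (values as deposited, without GC correction).

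Other genes of the lysosome, taken from lists that were chosen with earlier results of these data known, were also mostly higher in 5NC than in 3NC, where 30.6% of all genes were called higher and 25.9% lower. Of 35 tested hydrolases such as glycosidases and lipases, 28 were higher in 5NC and the other 7 not called (median 0.37), and of 14 genes that sort enzymes to the lysosome, 11 were higher and 1 lower (0.32). For other lysosomal membrane proteins and lipid carriers the counts were 12 higher and 3 lower of 21 (0.20), and for regulators of lysosomal biogenesis and mTORC1 docking 11 higher and 3 lower of 20 (0.25). V-ATPase genes and assembly factors outside the symbol rule were higher in 3 and lower in 1 of 12 cases (0.015). Of 3 tested cathepsin inhibitors, 1 was higher and 2 were lower.

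Under overexpression against 5NC (30.3% of all genes called higher and 44.1% lower, and 27.8% and 27.0% after GC correction), the hydrolases were higher in 5 and lower in 23 of 35 cases (median -0.28), and in 4 and 16 cases after GC correction (-0.088). Plbd2, a phospholipase B-like protein, went from 21.7 ± 0.406 to 11.6 ± 2.05 FPKM (mean ± SD of 3 libraries; log2 change -0.87, and -0.35 after GC correction), and Arsa, the arylsulfatase that degrades sulfatide, from 19.9 ± 0.684 to 12.1 ± 1.15 (-0.68, and -0.16). Of the sorting genes, 4 were higher and 8 lower of 14. Vps26a, a retromer subunit, went from 54.9 ± 1.78 to 79.7 ± 3.08 (0.53, and 0.26 after GC correction), and Gnptg, a subunit of the enzyme that makes the mannose 6-phosphate tag, from 18.2 ± 1.0 to 10.9 ± 0.529 (-0.69, and -0.71). Among the membrane proteins and carriers 5 were higher and 7 lower of 21. Psap, the precursor of the saposins, went from 288 ± 6.84 to 211 ± 13.0 (-0.45, and -0.051 with adjusted p = 0.144). For V-ATPase genes outside the rule the counts were 3 higher and 4 lower of 12, with Rnasek at -0.76 (-0.21 after GC correction) and Tmem9 at -0.70 (-0.32). For the regulators they were 4 and 8 of 20: Lamtor5 went from 62.7 to 102.5 FPKM and Tfe3, a relative of TFEB, from 14.4 to 9.24 (0.70 and -0.59, and 0.79 and -0.36 after GC correction). Of the 3 tested inhibitors, 2 were higher and 1 lower, and after GC correction all 3 were higher. Serpinb6a rose from 127 to 191 FPKM and Cstb, the gene of cystatin B, from 337 to 477 (0.59 and 0.50, and 0.24 and 0.54 after GC correction).

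Under knockdown against 3NC (20.0% of all genes called higher and 19.5% lower), 8 of 35 hydrolases were higher and 2 lower (median 0.060), and 4 of 14 sorting genes were higher and 2 lower (0.083). The membrane proteins and carriers had 6 higher and 5 lower of 21 (0.10). Among them Scarb2, the membrane protein LIMP-2 that carries glucocerebrosidase to the lysosome, rose from 22.7 ± 0.807 to 34.6 ± 1.11 FPKM (0.59), and lay at 40.7 ± 1.53 in 5NC. V-ATPase genes outside the rule were lower in 3 of 12 cases, with the other 9 not called, and regulators were higher in 6 and lower in 3 of 20. Of the inhibitors, Serpinb6a stood at -0.074 and Cstb at -0.11, both not called.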

How the data were processed

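The authors deposited 1 table with a value per gene and library for 12 libraries of C18-4 cells. The genome build was mm10, as the submitters' processing notes say. For the aligner, the counter and any use of strand, nothing is given in the sources used here. The deposited values were read as FPKM because their column sums differ and do not reach the fixed total of TPM, and their lowest values fall with transcript length. The file header names no unit, so TPM over a larger gene set is possible. No counts were used, so depth (11000000 to 12900000 fragments per library) is an estimate from those lowest values.

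Genes that reached 1 FPKM in 3 libraries or more (11360 of 17576) were tested on log2(FPKM + 1) with limma 3.58.1 in R 4.3.3. All 12 libraries entered a single fit without a replicate block, with a robust trended variance. P-values were adjusted by Benjamini-Hochberg over all tested genes, and 0.05 was the threshold for a call. Fold changes on this scale understate those of low genes. GC correction subtracted from each library a natural spline with 5 degrees of freedom, fitted to GC content, taken from each gene's longest transcript in GENCODE M21 and known for 98.6% of tested genes. The fit was tested on simulated data with noise independent between genes and without a GC trend, so the effect of such a trend was not covered. Gene coordinates are those of GRCm38, the assembly also called mm10.

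Values in every library are given for genes called with a log2 difference of at least 0.5 in any of the 3 group comparisons, and for the 2 most abundant of each role group. From each other list up to 4 genes with the smallest p are named (2 per list were). The members, lists and this rule were chosen with earlier results of these data known. Other alternatives were a pseudocount of 0.1, no filter, quantile normalization, median-of-ratios factors, a replicate block, only the compared groups, the other or both controls, and each library left out. The other control with GC correction, and shares from GC-corrected values, were chosen after the data were seen.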

Additional observations from a re-analysis of the deposited data

How the results depend on the processing

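Of the calls and directions of the 27 members, the pseudocount of 0.1 left all 108 as they were, and the replicate block left 105 of 108. The controls and GC content moved most. With the other control, members called lower in 8276OV numbered 3, and those called in 8276KD numbered 3 higher and 18 lower. With both controls 14 were lower in 8276KD. With the other control and GC correction together, chosen after the data were seen, 20 were higher and 2 lower in 8276OV, and 3 higher and 17 lower in 8276KD, where 6799 of all genes were called. Members lower in 8276KD against 3NC numbered 5 with quantile normalization, 5 with GC correction and 6 with the replicate block and GC correction together. Members lower in 5NC against 3NC numbered 0 without a filter and 0 with the replicate block by limma, 2 with quantile normalization, 2 with median-of-ratios factors, 2 with only the compared groups, 3 with GC correction, 4 with the block and GC correction, and 0 whichever of the 6 libraries of these groups was left out. In the difference of the effects, 6 members were higher with the replicate block and GC correction. The cause was not tested.

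Turned values are given where a gene was called with or without the change. GC correction, with or without the replicate block, turned the direction for Ctsz in 8276KD (0.079), for Atp6v0d1 (0.081), Atp6v1f (0.22), Atp6v1h (-0.033), Ctso (-0.17), Lamp1 (0.0073) and Lamp2 (-0.022) in 8276OV, and for Atp6v0e (-0.028) and Atp6v1h (-0.073) in the difference of the effects. Median-of-ratios factors turned Ctsb in 8276OV (0.0069). Against both controls the turned values in 8276KD were Atp6ap1 -0.17, Atp6ap2 -0.14, Atp6v0b -0.36, Atp6v0d1 -0.19, Atp6v0e2 -0.31, Ctsl -0.17, Gnptg -0.25, Lamp1 -0.15, Serpinb6a 0.097 and Vps26a -0.017, and in 8276OV Atp6v0d1 0.020 and Lamp1 0.31. Against the other control they were in 8276KD Atp6ap1 -0.38, Atp6ap2 -0.28, Atp6v0a1 -0.20, Atp6v0b -0.73, Atp6v0c -0.37, Atp6v0d1 -0.44, Atp6v0e2 -0.64, Atp6v1b2 -0.0046, Atp6v1h -0.12, Cstb 0.25, Ctsl -0.61, Gnptg -0.63, Lamp1 -0.66, Plbd2 -0.55, Scarb2 -0.23, Serpinb6a 0.27 and Vps26a -0.25. In 8276OV they were Arsa 0.098, Atp6v0a2 0.029, Atp6v0b 0.064, Atp6v0d1 0.28, Atp6v0e2 0.17, Gnptg 0.060 and Lamp1 0.82. With GC correction as well they were in 8276KD Atp6ap1 -0.326, Atp6ap2 -0.352, Atp6v0a1 -0.195, Atp6v0b -0.604, Atp6v0c -0.301, Atp6v0d1 -0.353, Atp6v0e2 -0.549, Atp6v1h -0.217, Ctsl -0.643, Ctso -0.0376, Lamp1 -0.593, Plbd2 -0.412, Scarb2 -0.232, Vps26a -0.294, Gnptg -0.606, Serpinb6a 0.193 and Cstb 0.279. In 8276OV they were Atp6v0a2 0.128, Atp6v0b 0.477, Atp6v0c 0.0869, Atp6v0d1 0.539, Atp6v0e2 0.429, Atp6v1f 0.405, Ctsa 0.29, Ctsd 0.113, Ctsz 0.0455, Lamp1 0.964, Plbd2 0.315, Arsa 0.544, Psap 0.123, Gnptg 0.0214 and Serpinb6a -0.0911.

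Same-numbered replicates of the groups compared did not deviate together: r of their deviations from the group means was -0.183 to -0.028 for 5NC and 8276OV, -0.181 to -0.005 for 3NC and 8276KD and 0.041 to 0.088 for 3NC and 5NC. For 8276KD and 8276OV it was 0.467, 0.59 and 0.029 for replicates 1, 2 and 3, so 2 of 3 pairs were over 0.1. Those 4 libraries of 12 (replicates 1 and 2 of both groups) correlated best with their own number. Not every pair did, so the numbers were not taken to pair the libraries. With the replicate block 8407 genes were called in 8276OV against 5NC (8452 without it), 4434 in 8276KD against 3NC (4477), 6380 in 5NC against 3NC (6414) and 6833 in the difference of the effects (6885). A fit of only the compared groups does not exist for the difference of the effects, which needs all 4. Leaving out a library leaves pairs, whose spread is pooled with the other groups. Without counts, the error of low values such as those of Atp6v1g2 cannot be set by depth.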
